A study of Mus musculus with 4 samples.

Results

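Osteoclasts are the multinucleated cells that resorb bone, and they form when mononuclear precursors of the macrophage lineage fuse with each other. The osteoclast fusion genes described here are 8 genes whose products have been tied to that step: Ocstamp, Dcstamp, Atp6v0d2, Cd9, Cd81, Cd47, Sirpa and Adam8. They were taken from the deposited expression table by gene name and are 8 of its 34745 genes. RNA was sequenced from BMMs, macrophages grown from the bone marrow of 8-week-old male C57BL/6 mice with the genotype given as wt. The cells were first held in medium without FBS for 12 h. All 4 cultures then received RANKL, the cytokine that drives osteoclast formation, at 100 ng/mL for 24 h, and the groups differed in what was added with it. One group (RANKL+DI, 2 libraries) received DI, dimethyl itaconate, a derivative of the macrophage metabolite itaconate, and the other (RANKL+Veh, 2 libraries) received the solvent DMSO. The dose of DI is 20 mM in the sample labels and 20 μM in the study's methods. There was no group without RANKL, so the comparison asks how DI changes fusion gene RNA in cells that already receive the differentiation signal, and it does not measure what RANKL itself did.

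Fusion of osteoclast precursors needs membrane proteins that bring cells together and let their membranes merge. DC-STAMP and OC-STAMP are multipass membrane proteins without which precursors stay mononuclear, and the d2 subunit of the vacuolar proton pump is also needed for efficient fusion. The tetraspanins CD9 and CD81 organise other proteins in the plasma membrane, SIRPα binds CD47 on neighbouring cells, and ADAM8 is a membrane-bound metalloprotease of precursors and osteoclasts. RANKL raises several of these genes through the transcription factors NFATc1 and c-Fos.

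The fusion genes did not move as a group. With DI, Ocstamp RNA fell to 0.174 of its vehicle level. Cd81, Cd9 and Atp6v0d2 rose, by 72.9%, 40.2% and 20.5%, and Dcstamp, Cd47, Sirpa and Adam8 did not pass the test. All 8 genes had enough counts to be tested, so that 1 was called lower and 3 higher. Genes were called where edgeR's quasi-likelihood test, with Benjamini-Hochberg adjustment over the 12590 genes tested, gave a value under 0.05. Over all tested genes, 7.7% were called lower and 7.14% higher. The median log2 fold change was 0.05 over the 8 genes and 0.00 over all tested genes. The values of the DI and vehicle libraries did not overlap for 6 of the 8 genes, against 58.6% of all tested genes, and the exceptions were Dcstamp and Adam8.

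The libraries held between 16085692 and 19403480 counts. CPM values below are counts relative to library sizes scaled by TMM, which gave factors of 0.963 and 0.967 with DI and 1.04 in both vehicle libraries, and 3 counts correspond to between 0.160 and 0.180 CPM. The scaling matters for small differences, because with library size alone the median over all tested genes changed by −0.10 on the log2 scale. Both libraries of a group differed by more than sampling noise and were used as separate replicates. The labels do not say whether they came from separate mice or cultures, so p-values measure the spread between these libraries, which may be technical. The label of the cells was checked against markers. Lyz2, the most abundant macrophage marker, stood at 17729 FPKM with DI and 14693 with vehicle, while markers of dendritic, B, T and NK, mast and erythroid cells summed to at most 0.932 CPM in any library. Neutrophil markers summed to between 7.40 and 10.01 CPM and stromal markers to between 39.2 and 46.6 CPM, and none of the tested genes of these lists was called. Megakaryocyte markers summed to between 32.6 and 57.8 CPM, nearly all of it Pf4, which macrophages also express and which was higher with DI (log2 fold change 0.83, standard error 0.062), while Gp9 had no count in any library and Itga2b at most 5.

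**Figure D1:**
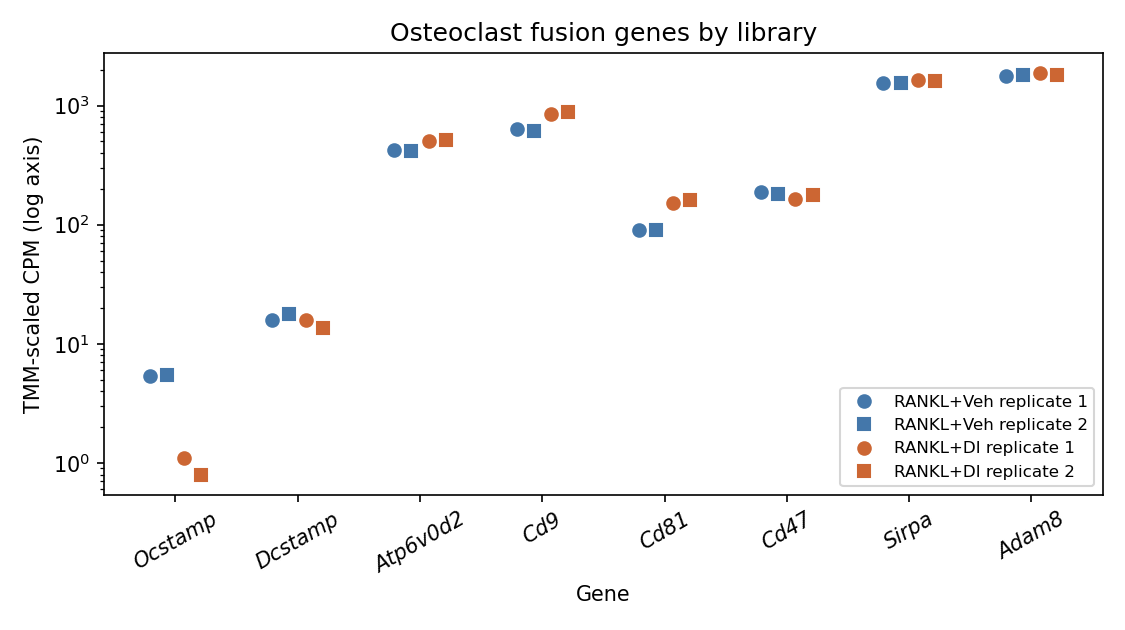
TMM-scaled CPM of the 8 osteoclast fusion genes (horizontal axis) in each library, on a log axis, in blue for RANKL+Veh and orange for RANKL+DI, with circles for replicate 1 and squares for replicate 2. Ocstamp has the widest gap between groups, at 1.11 and 0.799 CPM with DI against 5.42 and 5.52 with vehicle, and Cd81 follows in the other direction, at 151 and 161 against 90.0 and 90.9.

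Ocstamp (ENSMUSG00000027670, chromosome 2 from 165393760 to 165400405 on the minus strand of GRCm38, 3 exons) encodes OC-STAMP. Counts were 19 and 15 in the RANKL+DI libraries, against 101 and 92 in the RANKL+Veh libraries. Both DI libraries lay below both vehicle libraries by a wide margin. The vehicle pair lay close together, at 5.42 and 5.52 CPM, and the DI pair stood at 1.11 and 0.799 CPM. Its mean was 0.953 ± 0.217 CPM with DI and 5.47 ± 0.0716 CPM with vehicle (SD, n = 2 each). Its log2 fold change was −2.52 with a standard error of 0.23 and a 95% confidence interval from −3.09 to −1.95, and it fell by 82.6% (adjusted p = 0.00240, edgeR's quasi-likelihood test). This was the 15th lowest log2 fold change of the 12590 tested genes, in a set of which 7.7% were called lower. In bulk RNA a smaller number of cells that express Ocstamp and less Ocstamp RNA per cell cannot be told apart.

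Ocstamp was also the scarcest of the 8 genes. Its mean over the 4 libraries was 0.901 FPKM, a level per gene length, and 81.4% of the tested genes had more. Its transcript of 3657 bases contains 589 bases, between positions 2074 and 3590, that resemble more than 50 other genes each. These bases lie outside the coding part, which runs from position 75 to 1568. No other gene matched the transcript at 95% identity over 20% of its length. How reads that match several places were counted is not given in the sources used here, so some of its counts may belong to other copies of the repeat.

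Dcstamp (ENSMUSG00000022303, chromosome 15 from 39745932 to 39760934, plus strand, 4 exons) encodes DC-STAMP, the relative of OC-STAMP. The DI libraries held 271 and 255 counts and the vehicle libraries 293 and 295. On the CPM scale these were 15.8 and 13.6 with DI and 15.7 and 17.7 with vehicle. The groups overlapped, since DI replicate 1 stood above vehicle replicate 1. The log2 fold change was −0.19 with a standard error of 0.12 (adjusted p = 0.367, edgeR's quasi-likelihood test). Its 95% confidence interval spans fold changes from 0.714 to 1.082, and the interval for Ocstamp runs from 0.117 to 0.259, so the intervals of the 2 genes do not meet.

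The balance between these relatives was followed within each library. Per gene length there were 26.2 and 31.2 times as much Dcstamp as Ocstamp RNA in the DI libraries, and 5.32 and 5.88 times as much in the vehicle libraries. The ratio was higher in both DI libraries than in either vehicle library. A ratio within a library does not depend on library size or TMM. An exact two-sided permutation test of 2 against 2 libraries cannot give a p below 0.333, which was the value here and for each of the 6 ratios that were computed.

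Atp6v0d2 (ENSMUSG00000028238, chromosome 4 from 19876841 to 19922605, minus strand, 8 exons) encodes the d2 subunit of the membrane sector of the vacuolar ATPase, the form that osteoclasts express. The DI libraries held 8735 and 9551 counts, the vehicle libraries 7954 and 6958. As CPM, the DI libraries stood at 509 and 509 CPM and the vehicle libraries at 427 and 417. The DI libraries were higher, with almost no spread between them. Its log2 fold change was 0.27 with a standard error of 0.035 and a 95% confidence interval from 0.18 to 0.36 (adjusted p = 0.00623, edgeR's quasi-likelihood test). This is the opposite direction to Ocstamp, though both genes are induced during osteoclast formation. About 30.8% of all tested genes had a larger absolute log2 fold change than Atp6v0d2.

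The ubiquitous isoform of the same subunit is encoded by Atp6v0d1, which also rose (log2 fold change 0.23, standard error 0.042, adjusted p = 0.0197, edgeR's quasi-likelihood test). Per gene length, Atp6v0d2 RNA was 60.8% and 61.0% of the sum of both isoforms in the DI libraries and 59.9% and 60.5% in the vehicle libraries. The share was higher in both DI libraries, and all 4 values lay between 59.9% and 61.0%, while both isoforms rose.

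**Figure D2:**
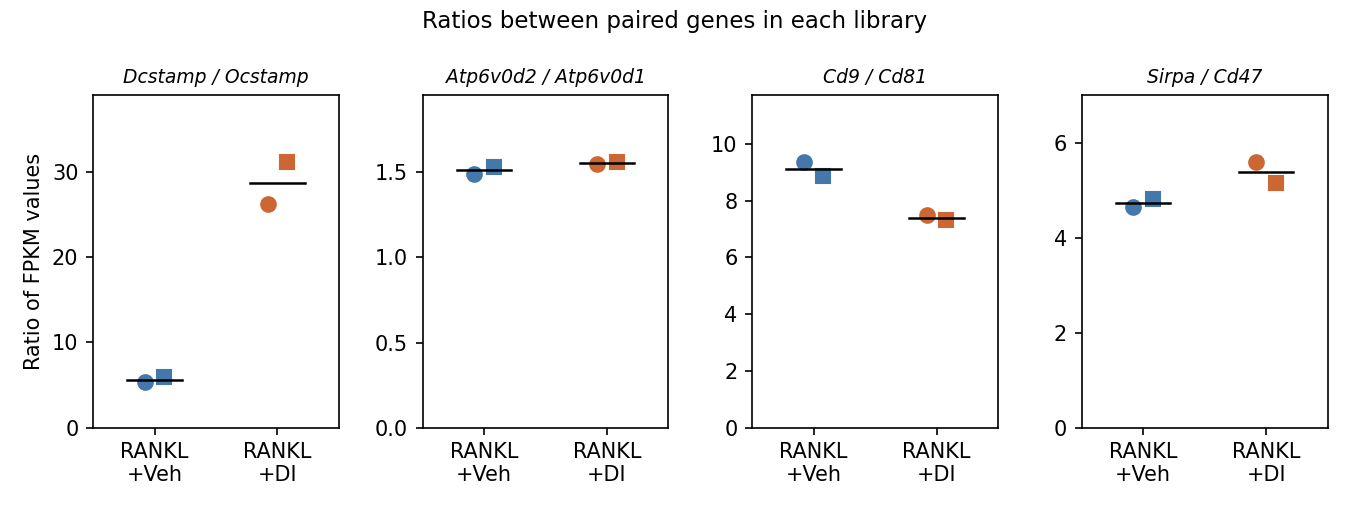
Ratio of FPKM values between paired genes in each library (vertical axis, linear and starting at 0), with circles for replicate 1, squares for replicate 2 and a bar at the group mean. Dcstamp over Ocstamp stands at 26.2 and 31.2 with DI and 5.32 and 5.88 with vehicle, while Atp6v0d2 over Atp6v0d1 stays between 1.49 and 1.56 in all 4 libraries.

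Cd9 (ENSMUSG00000030342, chromosome 6 from 125460266 to 125494791, minus strand, 8 exons) and Cd81 (ENSMUSG00000037706, chromosome 7 from 143052739 to 143067934, plus strand, 8 exons) encode closely related tetraspanins. Their promoters are shown because these relatives rose together. Each is given as the 250 bases before the RefSeq start site, read 5′ to 3′ on the gene's own strand from the RefSeq table of GRCm38.p6, with the letters GGGCGG of a GC box, the site of Sp1-type factors, in capitals. The Cd9 window is chr6:125494761-125495010 on the minus strand and the Cd81 window is chr7:143052500-143052749 on the plus strand.
Cd9: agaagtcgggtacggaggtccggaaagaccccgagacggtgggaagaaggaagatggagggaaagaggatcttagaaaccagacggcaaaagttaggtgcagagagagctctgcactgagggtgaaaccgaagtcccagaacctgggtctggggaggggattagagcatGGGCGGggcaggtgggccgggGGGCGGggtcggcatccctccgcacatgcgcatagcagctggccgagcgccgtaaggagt
Cd81: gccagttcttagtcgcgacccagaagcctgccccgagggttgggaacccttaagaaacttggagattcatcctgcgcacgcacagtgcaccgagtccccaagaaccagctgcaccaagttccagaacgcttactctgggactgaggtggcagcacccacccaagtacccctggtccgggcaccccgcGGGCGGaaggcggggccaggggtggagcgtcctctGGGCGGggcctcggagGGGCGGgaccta

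Both windows are rich in G and C, at 61.6% for Cd9 and 65.6% for Cd81, against a median of 52.4% over all 32817 windows of that length. On both strands, GGGCGG was found 2 times in Cd9 and 3 times in Cd81, in each case within 81 bases of the start, and 32.7% of all windows hold it. The table also has Cd47, with 2 GC boxes, and Adam8, with 1, and it was used for these 4 of the 8 genes. Cd47 has 2 entries in it. The one used lies near the deposited gene start of 49855618 but 55121 bases from the annotated 5′ end of the gene. None of the 4 windows held the AP-1 letters TGANTCA, which 6.75% of all windows hold. The MITF and TFE3 E-box CACGTG (6.02% of windows), the antioxidant response element TGACNNNGC (10.2%, which can overlap the AP-1 letters), the PU.1 letters GGAAGT (19.7%) and the TATA letters TATAAA (12.4%) were not in them either. The NFAT core GGAAA, found in 55.6% of all windows, occurred 2 times in Cd9 and was not in the other 3. The GC box and the TATA letters were searched after the sequences had been read. Absence of these letters from 250 bases says nothing of binding elsewhere.

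Cd9 counts were 14578 and 16663 in the DI libraries and 11807 and 10090 in the vehicle libraries, or 849 and 888 CPM against 633 and 605. Every DI library was above every vehicle library. On the log2 scale the fold change was 0.49 with a standard error of 0.042 and a 95% confidence interval from 0.39 to 0.59 (adjusted p = 0.00192, edgeR's quasi-likelihood test). A pseudogene, Cd9-ps, matches 53.7% of the transcript at 90.7% identity and had at most 2 counts in any library, and Gm26728 on the opposite strand, which overlaps 10.7% of the exonic bases, had at most 4.

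For Cd81, 2599 and 3030 counts were found in the DI libraries and 1678 and 1515 in the vehicle libraries, or 151 and 161 CPM against 90.0 and 90.9. The vehicle libraries were nearly equal and both DI libraries lay well above them. This gave a log2 fold change of 0.79 with a standard error of 0.051 and a 95% confidence interval from 0.67 to 0.91, the highest of the 8 genes (adjusted p = 8.20e-04, edgeR's quasi-likelihood test). Cd81 itself included, 271 of the 12590 tested genes had a log2 fold change this high or higher. R74862, a transcript on the opposite strand that overlaps 3.61% of its exonic bases, had at most 30 counts.

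The 95% confidence intervals of the log2 fold changes of Cd9 and Cd81 do not meet. The FPKM of Cd9 over that of Cd81 was 7.48 and 7.33 with DI and 9.38 and 8.88 with vehicle. Cd9 remained the more abundant of the pair in every library, by a smaller factor in both DI libraries (exact permutation p = 0.333, the smallest that this design allows).

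Cd47 (ENSMUSG00000055447, chromosome 16 from 49855618 to 49915010, plus strand) encodes the ligand of SIRPα. Its counts were 2813 and 3302 in the DI libraries against 3498 and 2993 in the vehicle libraries, or 164 and 176 CPM against 188 and 180. The groups did not overlap, but DI replicate 2 and vehicle replicate 2 lay almost side by side. The log2 fold change was −0.11 with a 95% confidence interval from −0.24 to 0.017 (adjusted p = 0.220, edgeR's quasi-likelihood test). When scaled by library size only, the log2 fold change was −0.22 and the gene was called lower (adjusted p = 0.0409, edgeR's quasi-likelihood test, and between 0.0409 and 0.620 in all alternatives), so its call depends on the scaling.

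Sirpa (ENSMUSG00000037902, chromosome 2 from 129592835 to 129632228, plus strand) encodes the receptor SIRPα, which carries an inhibitory signal in myeloid cells. Its RNA gave 27931 and 30134 counts in the DI libraries and 28738 and 25516 in the vehicle libraries, or 1626 and 1606 CPM against 1542 and 1531. On this scale both DI libraries were slightly higher. Its log2 fold change was 0.07, with a 95% confidence interval from −0.00085 to 0.15, by TMM (adjusted p = 0.170, edgeR's quasi-likelihood test) and −0.03 by library size only, so no direction can be given. Free of that choice, the FPKM of Sirpa over that of Cd47 was 5.61 and 5.15 with DI and 4.64 and 4.81 with vehicle, a higher ratio of receptor to ligand RNA in both DI libraries.

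Adam8 (ENSMUSG00000025473, chromosome 7 from 139978932 to 139992562, minus strand, 24 exons) had the most counts of the 8 genes, with 32151 and 33588 in the DI libraries and 32996 and 30236 in the vehicle libraries. These were 1872 and 1790 CPM against 1770 and 1814, and the groups overlapped. The log2 fold change was 0.03 with a 95% confidence interval from −0.058 to 0.12 by TMM (adjusted p = 0.621, edgeR's quasi-likelihood test), and −0.07 by library size only. As fold changes the interval runs from 0.961 to 1.09, and it reflects only the spread between these libraries. Gm16201, on the opposite strand over 0.992% of its exonic bases, had at most 106 counts.

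**Figure D3:**
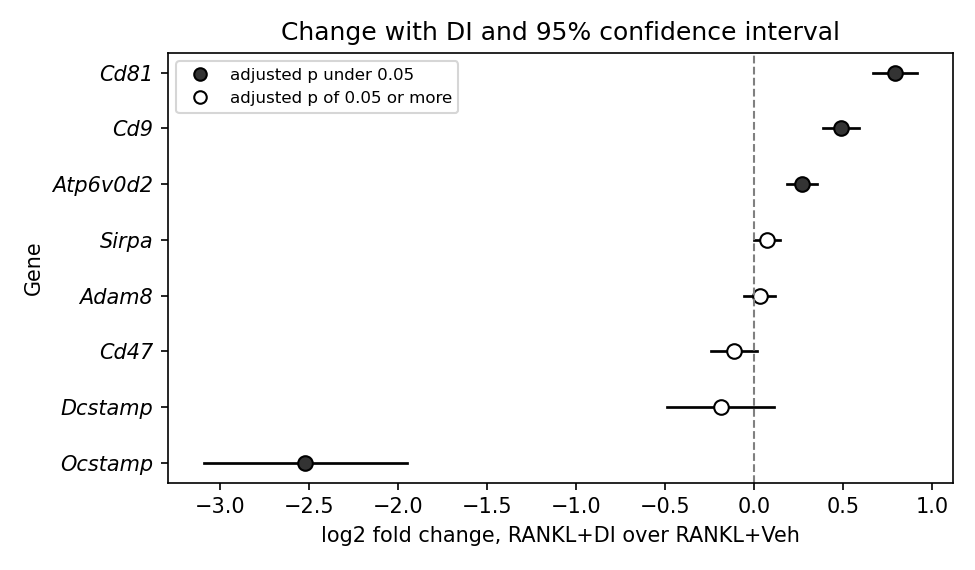
Log2 fold change of RANKL+DI over RANKL+Veh (horizontal axis) for each fusion gene, with bars for the 95% confidence interval. The interval was computed from edgeR's log2 fold change and F statistic. Filled points have an adjusted p under 0.05: Ocstamp at −2.52 on the left, and Atp6v0d2, Cd9 and Cd81 at 0.27, 0.49 and 0.79 on the right.

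The 8 genes covered a wide range of levels. By mean FPKM over the 4 libraries, which is per gene length, the order was Cd9 at 312, Adam8 at 283, Atp6v0d2 at 169, Sirpa at 158, Cd81 at 38.7, Cd47 at 31.4, Dcstamp at 7.90 and Ocstamp at 0.901. The gene lengths that the deposited FPKM values imply are not always the annotated exonic bases. They were 9981 against 4911 for Sirpa and 6413 against 4638 for Adam8. The order between genes, and which of 2 neighbours stands above the other, depends on these lengths. On the deposited scale, neighbours in this order exchanged places between the groups. With vehicle, Adam8 (286 and 293 FPKM) was above Cd9 (277 and 265), and with DI Cd9 (345 and 363) was above Adam8 (281 and 270). Likewise Cd47 (34.5 and 33.0 FPKM) was above Cd81 (29.6 and 29.8) with vehicle, and Cd81 (46.1 and 49.4) was above Cd47 (28.0 and 30.2) with DI. Atp6v0d2 and Sirpa overlapped with vehicle, at 161 and 158 FPKM and at 160 and 159, and stood apart with DI, at 179 and 180 against 157 and 156. The scarcest gene, Ocstamp, also had the largest absolute log2 fold change of the 8.

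Around the 8 genes, 6 lists of their partners, relatives and regulators hold 83 genes, the fusion genes among them that belong to a list included. Of the 75 that could be tested, 8 were lower and 22 higher with DI, and their median log2 fold change was 0.18. Over all tested genes, 7.7% were lower and 7.14% higher, and the counts of each list below are to be read against these shares. The number higher depended on the scaling and was 13 when scaled by library size only, while the number lower was then 10.

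Among 16 other proteins tied to macrophage or osteoclast fusion, 14 were tested, 3 were lower and 3 higher. The lower ones were Cd44, a hyaluronan receptor (log2 fold change −0.20, standard error 0.040), Sh3pxd2a, which encodes the podosome scaffold TKS5 (−0.53, standard error 0.079), and Cd109, a GPI-anchored surface protein (−0.61, standard error 0.082). The higher ones were Cd200r1, the receptor of CD200 (0.55, standard error 0.055), Trem2, a receptor that signals through DAP12 (0.41, standard error 0.037), and Lgals3, which encodes galectin-3 (0.36, standard error 0.044). Tyrobp, which encodes DAP12, and Elmo1, a regulator of RAC, had log2 fold changes of 0.20 and 0.14 and did not pass (adjusted p = 0.220 and 0.110, edgeR's quasi-likelihood test). Cd44 lost its call without either DI library or RANKL+Veh replicate 2 (log2 fold changes −0.21, −0.18 and −0.16), Sh3pxd2a lost it without RANKL+Veh replicate 1 (−0.46), and Tyrobp gained one without that library (0.36). Synb, a syncytin gene, had no count in any library.

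Of 24 tetraspanins and their partner proteins, 20 were tested, none was lower and 6 were higher, with a median log2 fold change of 0.27. Beside Cd9 and Cd81, the higher genes were Cd53 (0.51, standard error 0.053), Cd151 (0.48, standard error 0.051), Cd63 (0.27, standard error 0.046) and Ptgfrn (0.36, standard error 0.073), whose product associates with CD9 and CD81. Cd63, the tetraspanin of late endosomes, was the most abundant at 585 FPKM with DI and 523 with vehicle, and its call and that of Ptgfrn were lost when scaled by library size only. Ptgfrn also lost it without either DI library or RANKL+Veh replicate 1 (0.38, 0.34 and 0.29), and Cd63 without RANKL+Veh replicate 1 (0.26). Tspan31 and Tspan3 did not pass, at 0.14 and −0.08. Over 14 alternatives Tspan3 ranged from −0.18 to −0.05 and gained a call as lower in 2. The log2 fold change of Cd81 was the highest of the list, with Tspan5 and Tspan9 next at 0.73 and 0.71, neither of which passed (adjusted p = 0.128 and 0.186, edgeR's quasi-likelihood test). Tspan5 and Tspan9 were named after their values were seen.

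Of 12 genes for the membrane sector of the vacuolar ATPase and its accessory proteins, 10 were tested, none was lower and 6 were higher, with a median log2 fold change of 0.24. Beside Atp6v0d2 and Atp6v0d1 these were Atp6v0a1 (0.39, standard error 0.038), Tcirg1, which encodes the a3 subunit of the osteoclast pump (0.19, standard error 0.041), Atp6v0b (0.22, standard error 0.052) and Atp6v0e (0.24, standard error 0.041). Atp6v0c, which encodes the proteolipid ring subunit, had a log2 fold change of 0.34 with a standard error of 0.12, and Atp6ap2 one of 0.04, and neither passed. When scaled by library size only, Atp6v0a1 and Atp6v0d2 kept their calls and the other 4 lost theirs. Tcirg1, Atp6v0b and Atp6v0d1 also lost them without either DI library or RANKL+Veh replicate 2, Atp6v0e lost its call without RANKL+Veh replicate 2 (0.22), and Atp6v0c gained one without that library (0.55). Without RANKL+Veh replicate 2, Tcirg1, Atp6v0b and Atp6v0d1 stood at 0.15, 0.17 and 0.19.

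The CD47 and SIRP list held 10 genes, all tested, of which none was lower and 3 were higher. They were Sirpb1c, an activating relative of Sirpa (0.56, standard error 0.11), Thbs1, which encodes thrombospondin-1, a soluble ligand of CD47 (0.39, standard error 0.090), and Skap2, an adaptor downstream of SIRPα (0.21, standard error 0.041). Ptpn6, which encodes the phosphatase SHP-1 that SIRPα recruits, had a log2 fold change of −0.06 and did not pass. Thbs1 and Skap2 lost their calls when scaled by library size only. Sirpb1c lost its call without RANKL+DI replicate 2 or either vehicle library (0.54, 0.51 and 0.61), Thbs1 without RANKL+DI replicate 1 or either vehicle library (0.32, 0.40 and 0.38), and Skap2 without replicate 1 of either group (0.19 and 0.18). In the ADAM list, 7 genes were tested and 1 was called, Adam15, at 0.24 with a standard error of 0.043, a call that was lost by library size only and without RANKL+DI replicate 1 or either vehicle library (0.21, 0.25 and 0.22). Adam17, the TNF-releasing protease, had −0.09 and did not pass. Over 14 alternatives Adam17 ranged from −0.20 to −0.07 and gained a call as lower in 3.

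Among 15 transcription factors that act in osteoclast precursors, all tested, 5 were lower and 3 higher. The lower ones were Fos (log2 fold change −0.60, standard error 0.043), Fosl2 (−0.57, standard error 0.080), Junb (−0.29, standard error 0.043), Nfatc1, the central osteoclast factor (−0.43, standard error 0.052), and Prdm1, which encodes Blimp1, a repressor of the osteoclast inhibitors Irf8 and Bcl6 (−0.62, standard error 0.11). Among the higher ones were Irf8 (0.45, standard error 0.045) and Tfe3 (0.28, standard error 0.048). Tfe3 lost its call in 4 of 14 alternatives, among them without either vehicle library (0.26 and 0.30). Prdm1 lost its call without RANKL+Veh replicate 1 (−0.59). Spi1, which encodes PU.1, and Jun did not pass, at −0.04 and 0.12. Ocstamp changed in the direction of Nfatc1 and Fos, and Atp6v0d2, Cd9 and Cd81 in the opposite one. Dcstamp, Cd47, Sirpa and Adam8 were not called. Whether these factors act on the fusion genes in these cells was not tested.

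**Figure D4:**
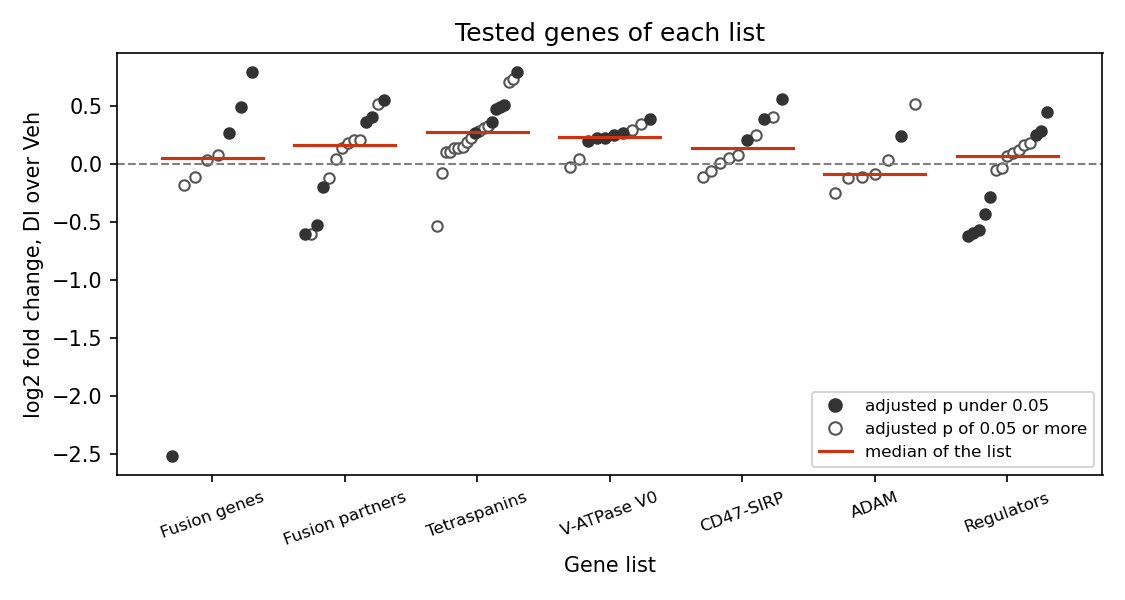
Log2 fold change of RANKL+DI over RANKL+Veh (vertical axis) for each tested gene of the 8 fusion genes and of 6 lists around them (horizontal axis), filled where the adjusted p is under 0.05, with a red bar at the list median. Ocstamp, at −2.52, lies far below every other gene shown, and the medians of the tetraspanin and vacuolar ATPase lists stand at 0.27 and 0.24.

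General markers of both cell states moved as well. Of 9 osteoclast markers, which include Ocstamp, Dcstamp and Nfatc1, 7 were tested, 5 were lower and 1 higher, and their summed level was 221 and 205 CPM with DI and 337 and 323 with vehicle. Mmp9 (log2 fold change −1.64, standard error 0.086), Acp5, which encodes TRAP (−0.95, standard error 0.089), and Ctsk, which encodes cathepsin K (−0.58, standard error 0.077), were lower, and Itgb3, the β3 integrin, was higher (0.56, standard error 0.079). Calcr had no count in any library and Oscar had at most 4. Of 7 macrophage markers 1 was lower, Fcgr1, and 5 were higher, with sums of 28364 and 29174 CPM with DI and 23021 and 22158 with vehicle. Most of each sum was Lyz2, at 22756 and 23769 CPM with DI and 18276 and 17618 with vehicle. The higher ones were Itgam, Mertk, Lyz2, Cd68 and Adgre1, at log2 fold changes of 0.57, 0.43, 0.37, 0.18 and 0.18. Ocstamp and Nfatc1 were called in all 14 alternatives and Dcstamp in none. How the calls of the other markers depend on the scaling was not examined. Over all tested genes, 7.7% were lower and 7.14% higher. These markers were named after their values had been seen. The part that such shifts have in the values of the fusion genes was not tested.

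The genes whose pattern over the 4 libraries lay nearest to 3 of the fusion genes were sought among the 11007 tested genes whose log2 CPM averaged more than 1. The measure was the root mean squared distance between log2(CPM + 0.5) values, each centred on the gene's own mean. Adding 0.5 shrinks the pattern of a gene as scarce as Ocstamp. Nearest to Ocstamp were Akap6, an A-kinase anchoring protein gene (distance 0.0299), Nek7, a kinase gene needed for the NLRP3 inflammasome (0.1002), and Pgf, which encodes placental growth factor (0.122). Their log2 fold changes were −2.15, −1.90 and −2.26. Among the nearest to Atp6v0d2 were Cln8 (0.00649) and Tmbim4 (0.00893), at log2 fold changes of 0.26 and 0.28. Cln8 lost its call in 2 of 14 alternatives. Tmbim4 lost its call in 9 of 14, among them with any 1 library left out (0.27 to 0.30). Nearest to Dcstamp were Ercc5 (0.00567), 2810455O05Rik (0.00617) and Lrrc14 (0.0169), and none of them was called. With nothing added before the log, a setting tried after the data were seen, the nearest to Ocstamp were Gbp5 (0.204), Akap6 (0.206) and Pgf (0.228), and Nek7 was at position 7 (0.341). Ercc5 and Cln8 were then still the nearest to Dcstamp and Atp6v0d2, while 2810455O05Rik moved to position 7 and Tmbim4 to position 5. The distances describe these 4 libraries only.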

How the data were processed

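Libraries were grouped by the treatment in their labels. For each of the 4 libraries the authors deposited unnormalized read counts by gene, and FPKM values that the authors derived from those counts and gene lengths. The build named in the submitters' processing notes is GRCm38 (mm10), and the aligner and counter are not given in the sources used here. Counts were tested with edgeR 4.0.16 in R 4.3.3 (TMM factors, default filter on low counts, quasi-likelihood fit, Benjamini-Hochberg adjustment over 12590 genes, 2 residual degrees of freedom), after tests on simulated data. Standard errors and confidence intervals are not given by that test. They were computed from its log2 fold change and F statistic with a t distribution, and are approximate. FPKM values were used only for levels and ratios between genes, and in an alternative test with limma 3.58.1. Other alternatives were DESeq2 1.42.0, limma-voom, other scalings and filters, a replicate block and each library left out. Genes named beside the 8 were all called genes of the 6 lists, the 2 uncalled ones of highest FPKM in each, the 3 nearest patterns, and the most abundant markers, with exceptions said in place. Of the genes this rule includes, 2 are not reported here. Annotation is from GENCODE M21, and copies were sought with BLAST+ 2.17.0. The fusion genes and all lists were chosen with earlier results of these data known. The floor of 3 counts covers counting error only.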

Additional observations from a re-analysis of the deposited data

How the results depend on the processing

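Over 14 alternatives for each of the 8 fusion genes, 105 values kept their direction and their side of the threshold, 1 gained a call and 6 reversed. The calls of Ocstamp, Cd9, Cd81 and Atp6v0d2 held in all 14, with log2 fold changes from −2.76 to −1.03, 0.38 to 0.52, 0.67 to 0.84 and 0.17 to 0.28. The value of Ocstamp nearest to 0 came from log2(FPKM + 1), a scale that shrinks the change of genes this low. The number of fusion genes lower was 2 with library size only, where Cd47 was called, and 1 in every other alternative, and the number higher was 3 throughout.

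Directions reversed for uncalled genes. With library size only, log2(FPKM + 1) and log2(FPKM + 0.1), Sirpa stood at −0.0304, −0.0302 and −0.0303, Adam8 at −0.0725, −0.0724 and −0.0727, and Atp6ap2 at −0.0633, −0.0637 and −0.0642. These 3 settings apply no TMM factors. With each library left out in turn, Atp6ap2 ranged from −0.0072 to 0.0899 and Ptpn6 from −0.126 to 0.010, both reversed without RANKL+DI replicate 2, and the cause was not tested. Under the same 3 settings, genes of the 6 lists higher with DI numbered 13, 12 and 11 in place of 22, all tested genes lower 1930, 1674 and 1667 in place of 969, and all tested genes higher 549, 536 and 532 in place of 899. The share of calls that were higher was 48.1% with TMM and 22.1% with library size only. With each library left out in turn, the ranges were 529 to 712 lower and 558 to 682 higher over all genes, and 16 to 20 higher in the lists. The lowest number lower in all genes was found without RANKL+Veh replicate 2, and without RANKL+Veh replicate 1 it was 548, with 572 higher.

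Deviations of same-numbered libraries were nearly uncorrelated (correlation −0.050), which does not show whether such libraries shared a mouse or batch. With the replicate block, 704 genes were lower and 685 higher, and the same numbers of fusion genes, 1 lower and 3 higher, were called. In the lists 8 genes were then lower and 19 higher, with the calls of Sirpb1c, Thbs1 and Skap2 lost, and Tmbim4 lost its call too. For 46 other named genes, 554 values kept their direction and call, 77 lost the call, 8 gained one and 5 reversed. These alternatives for single genes of the lists were added after the data were seen. Depth limits Ocstamp most, since its DI libraries held 19 and 15 counts.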
